A study of Mus musculus with 2 samples.

Results

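The genes described here are 39 genes of glycolysis and of the response to low oxygen, chosen by symbol: 16 glycolytic enzymes, 7 kinases that set the entry into and the exit from glycolysis, 6 genes of oxygen sensing and 10 genes known to be induced by hypoxia. All 39 have a value in the deposited expression table, which holds 13281 genes. Their mRNA was sequenced in 661W cells, a line of immortal mouse cells that arose in the retina of a mouse carrying SV40 T antigen and serves as a model of cone photoreceptors. The cells carried either the empty retroviral vector pBABE-Puro or the same vector with 3xF-TRPM1, which is full-length human TRPM1, a cation channel, with a 3xFLAG tag at its N-terminus. Both were stable populations kept under puromycin and not single clones, and both were grown in ordinary medium with serum. For neither do the methods describe exposure to low oxygen or to a drug other than puromycin. The comparison asked what expression of the channel did to the photoreceptor line, and 1 library was sequenced per condition.

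Glycolysis turns glucose into pyruvate in the cytosol, and lactate dehydrogenase then turns pyruvate into lactate where it does not enter mitochondria. Photoreceptors are known for making much lactate even with oxygen present, and a short supply of glucose is thought to harm cones in some inherited retinal degenerations. In normal oxygen the prolyl hydroxylases of the EGLN family mark the alpha subunits of hypoxia-inducible factor (HIF), and VHL directs the marked subunits to degradation. In low oxygen the alpha subunits persist, pair with ARNT and bind a short DNA element near their target genes, among them many glycolytic enzymes. HIF alpha is regulated mainly as a protein, so its mRNA level is not a measure of HIF activity.

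The listed genes held 16404444 reads with the empty vector and 17869838 reads with 3xF-TRPM1. Levels are given in CPM, the unit in which a library of any depth is brought to the same total; the authors scaled to an effective library size and did not divide by gene length. A single read stood for 0.0598 CPM with the empty vector and 0.0567 CPM with 3xF-TRPM1, so the reads behind each level could be worked back. Where a pair of values is given for a gene, the first is that of the empty vector library. Log2 values of single genes are fold changes, which compare 3xF-TRPM1 with the empty vector after 0.5 was added to each CPM value, and carry the 95% exact (Clopper-Pearson) interval of the read ratio in square brackets. The interval covers counting error only. With 1 library per condition there is no replicate check, so no SD or p-value is given, and every difference is one between these 2 libraries. A gene was called higher or lower at a difference of at least 1.5-fold whose interval excluded 1-fold.

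Few cone markers had a value here, too few to judge the cone label. Of 18 cone photoreceptor markers, 2 had values, Gnat2 at 2.57 and 2.49 CPM and Thrb at 9.21 and 11.2 CPM. The others, opsins included, were not analysed here, since the table lists only genes above 1 CPM in both libraries. Of 8 rod markers, Pde6b had a value, at 1.79 and 1.13 CPM. Fibroblast and matrix markers, by contrast, were measured for 13 of 14 genes and summed to 15318 and 23929 CPM. Of these 13, 8 were called higher and 0 lower, where the same rule called 3.91% and 3.07% of all genes. The list for Mueller glia and astrocytes had 7 of 10 genes measured, and all 7 summed to 1376 and 1813 CPM. Vim, at 652 and 653 CPM, is on both lists and part of both sums. Of the 7, 4 were called higher and 0 lower. With total read scaling 3 of the 7 were called, since Slc1a2 fell under the threshold at 0.58. Both measured macrophage and leukocyte markers, Cd14 and Cd68, were called lower, at a sum of 15.9 and 9.07 CPM, and of 6 endothelial markers Kdr had a value, 2.09 and 2.61 CPM. These shifts run through the same pair of libraries as every value below, and their part in the results was not tested.

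Of the 39 genes, 5 were called higher in the 3xF-TRPM1 library and 0 were called lower. Among all 13281 genes the same rule called 3.91% higher and 3.07% lower, beside 12.8% higher among the 39. Because the members were chosen with earlier results of these data known, the difference in shares is not a test. The 5 were Adm, Epas1, Car9, Eno2 and Pfkfb3, with from 1.53-fold to 1.97-fold more CPM, and they came from all 4 role groups. By the counting interval alone, 20 of the 39 lay above 1-fold and 4 below, while 15 spanned it. These counts hold for the authors' scaling, and total read scaling lowers every log2 value by about 0.05. Within that shift, the intervals of Pgam1, Tpi1 and Pdk2 begin at 0.04, 0.03 and 0.03, and that of Pdk3 ends at 0.01. The background of the interval alone is high at this depth, 23.1% of all genes above and 19.7% below, so a small difference of this kind is common in the table. The median log2 fold change was 0.10 over the 39 genes and 0.0093 over all genes. In RNA from whole cultures, a lower level from fewer cells of a kind and one from less RNA per cell cannot be told apart.

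**Figure D1:**
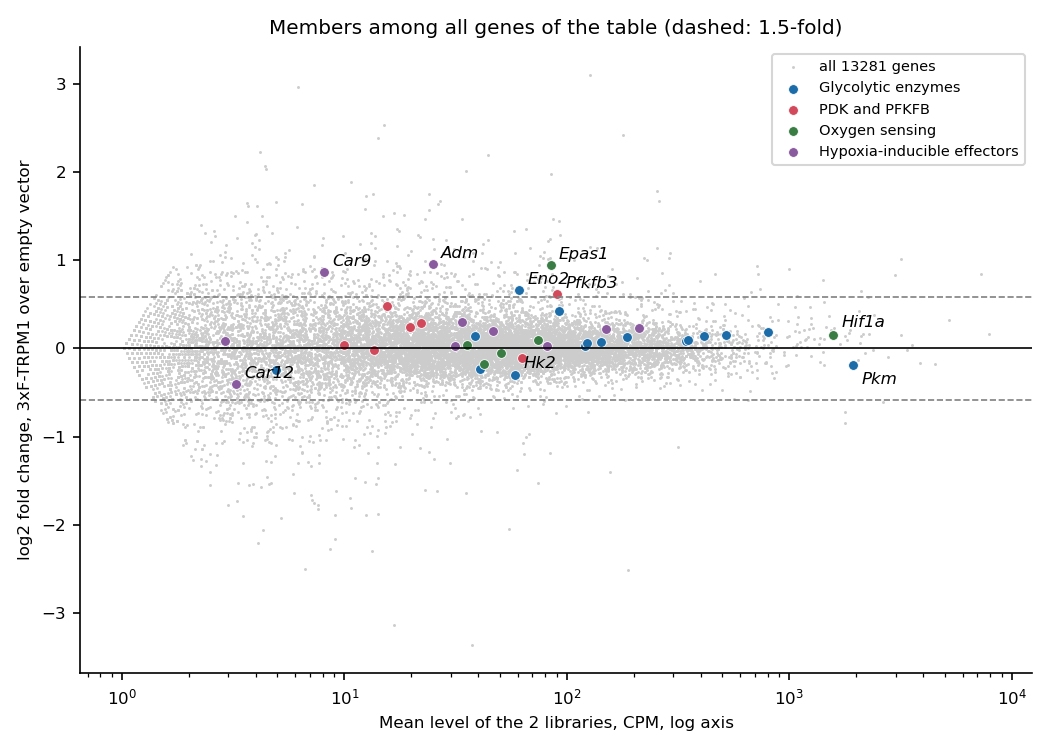
Each point is 1 gene, placed by its mean level in the 2 libraries (CPM, log axis) and its log2 fold change of 3xF-TRPM1 over empty vector, with grey points for all 13281 genes, coloured points for the 39 members by role and dashed lines at 1.5-fold. The 5 called members lie above the upper line, no member lies below the lower line, and the abundant members Pkm and Hif1a lie close to 0.

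On GRCm38, Adm is at chr7:110627661-110629820 on the plus strand, Epas1 at chr17:86753700-86833410 on the plus strand and Car9 at chr4:43506966-43513729 on the plus strand. Eno2 is at chr6:124760053-124769673 and Pfkfb3 at chr2:11471433-11554077, both on the minus strand. All 5 are protein-coding genes in GENCODE M21. Their sequence is little shared with other genes. The share of their 50-base exon stretches also found in other genes was 0% for Adm and Epas1, 0.1% for Eno2, 0.4% for Pfkfb3 and 4.8% for Car9. Nearly all of the Car9 share, 4.7%, is with an antisense gene, Gm12454, which overlaps Car9 over 9.3% of its exon bases. Whether the counting used strand is not given in the sources used here, and Gm12454 itself had 20 and 35 reads.

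Promoters of the members were searched for the core letters of the HIF binding element, ACGTG or GCGTG on either strand, in the 250 bases before each RefSeq start on GRCm38.p6. The letters stood in 43 of 55 windows of 36 members (78.2%), in 55.7% of the windows of all genes in the table and in 38.6% of all windows. Windows of the same gene can overlap and share a site, as in Aldoa, Eno1 and Pfkm. Per gene, 31 of the 36 members held the letters (86.1%), beside 61.9% of genes of the table with a window and 41.5% of all genes with one. The members' windows had a median GC content of 59.2%, against 60.0% for genes of the table and 52.4% for all windows. ACGTG is also part of CACGTG, the E-box read by other factors, which stood in 7 of the 55 windows (12.7%), in 8.34% of the windows of all genes in the table and in 6.02% of all windows. Among the called genes, Adm, Car9 and Pfkfb3 held the core letters and Eno2 did not, while Epas1 was not searched. Bnip3l and Ndrg1 were not searched either, and Gpi1, Tpi1, Vhl and Car12 held no match. Stretches of 30 bases around the letters are printed for the 3 called genes and, because the same letters stand before genes that were not called, for Ldha and Bnip3. A further match of the core letters outside the E-box, in each of Pfkfb3, Ldha and Bnip3, is not printed. The stretches read 5′ to 3′ on the strand of the gene, with the core letters, their reverse complement or the whole E-box in capitals:
Adm, chr7:110627554-110627583: ttttagaagcaagCACGCtggagagggagg
Adm, chr7:110627590-110627619: gggcaaatctgacCACGCccaccgtccgcc
Car9, chr4:43506995-43507024: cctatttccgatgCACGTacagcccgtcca
Pfkfb3, chr2:11502126-11502155: cacccttctctcCACGTGaaagggggctgg
Pfkfb3, chr2:11553973-11554002: cctccgcgccgtgACGTGccaagctgtgac
Ldha, chr7:46845647-46845676: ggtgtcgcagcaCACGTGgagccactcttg
Ldha, chr7:46845750-46845779: agcctaCACGTGggttcccgCACGTccgct
Bnip3, chr7:138909598-138909627: ggcgCACGCgccgCACGTGccaCACGCtcc

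The Adm matches begin 90 and 54 bases before the RefSeq start and the Car9 match 18 bases before it. The Car9, Pfkfb3 and Ldha stretches lie inside the outer bounds that GENCODE gives these genes, and those of Adm and Bnip3 lie before theirs. Ldha and Bnip3 were not called, at log2 fold changes of 0.15 and 0.30, and any relation between matches and differences was not tested. A match of 5 letters is a description of the sequence and does not show a bound site.

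Of the 7 most abundant members per length, 6 were glycolytic enzymes and the other was Hif1a. Per kilobase of the gene length in the deposited table, Pkm, the pyruvate kinase that makes pyruvate and ATP in the last step, stood at 413 and 362 CPM per kb, the highest of the 39 in both. Pgam1, Ldha, Eno1, Aldoa and Tpi1 followed among the enzymes, from 171 to 122 CPM per kb in the empty vector library. The gap between each of these 6 enzymes and the next enzyme, Pfkm at 41.6 CPM per kb, was wide, whereas the order within the 5 depended on the length used: with the principal transcript in place of all exons, Eno1 was second to Pkm among all members and Pgam1 seventh. The table counts genes, so the PKM1 and PKM2 forms of Pkm are not told apart.

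Of the 16 enzymes, 1 was called higher (6.25%) and 0 lower, beside 3.91% and 3.07% of all genes. Their median log2 fold change was 0.09. The called enzyme was Eno2, gamma enolase, the enolase known as a marker of neurons. Its level was 47.2 CPM (790 reads) with the empty vector and 74.9 CPM (1321 reads) with 3xF-TRPM1, a log2 fold change of 0.66 [0.54, 0.79]. The ubiquitous enolase Eno1 had 745 and 850 CPM, for a log2 value of 0.19 [0.16, 0.23], and the muscle enolase Eno3 had 36.5 and 40.5 CPM, 0.15 [-0.01, 0.31]. The balance between Eno2 and Eno1 differed between the libraries. The ratio of Eno2 reads to Eno1 reads, which does not depend on scaling between libraries, differed by 0.47 [0.34, 0.61] on the log2 scale, and Eno2 went from 5.92% to 8.07% of enolase level per kb, or from 4.15% to 5.67% with the length of the principal transcript. Eno1 shares 26.0% of its 50-base stretches with other genes, mostly the near-identical Eno1b, which was listed at 37.5 and 35.9 CPM, so its level is uncertain by the reads split between them.

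**Figure D2:**
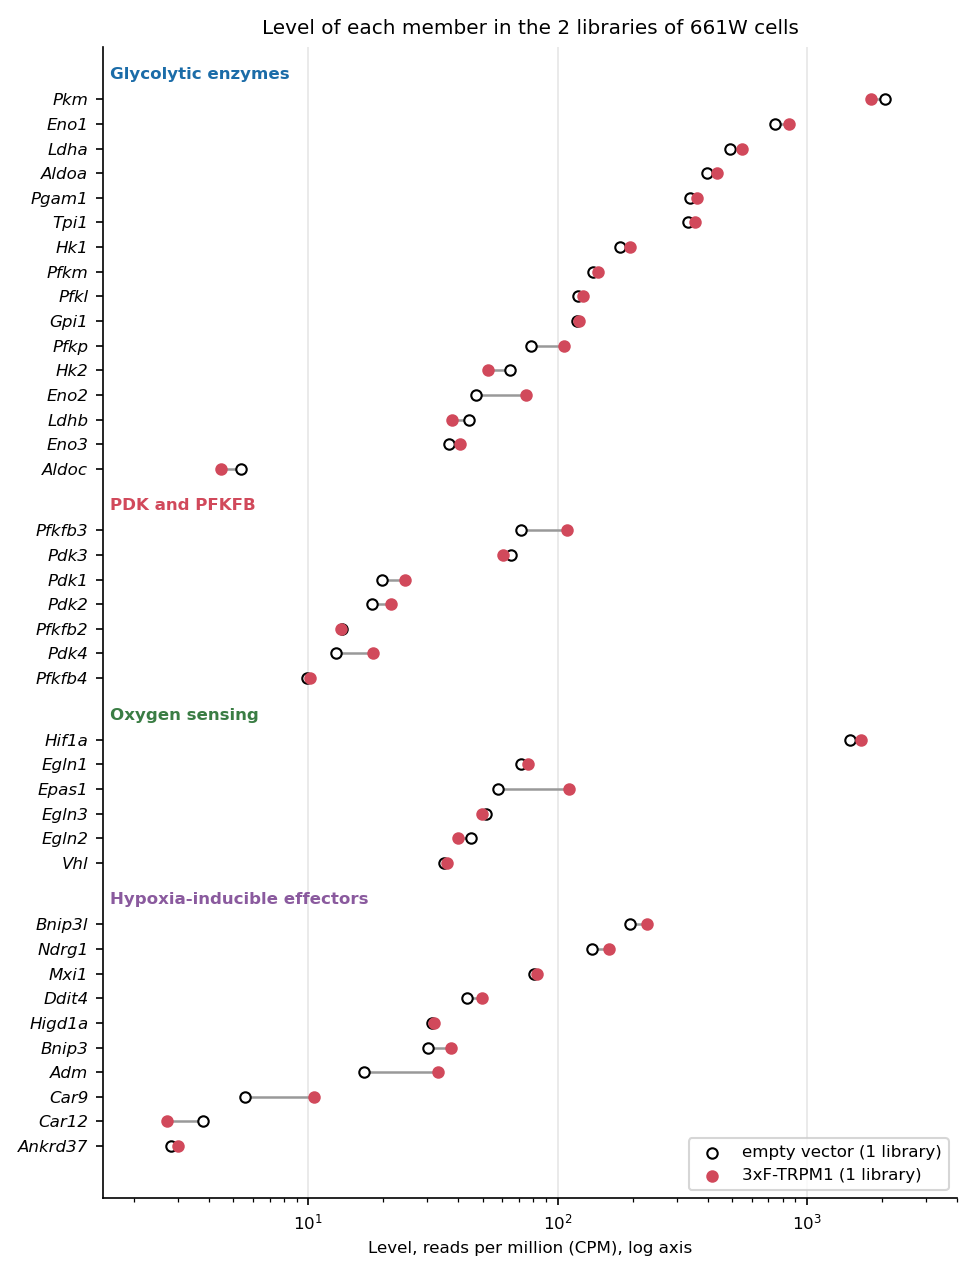
Each row is 1 member, grouped by role, with its level in CPM (log axis) in the empty vector library as an open circle and in the 3xF-TRPM1 library as a filled circle. The members span from Ankrd37 at 2.81 CPM to Pkm at 2066 CPM in the empty vector library, and the longest lines between circles belong to Adm, Car9 and Epas1.

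At the first steps, which trap and commit glucose, the isozymes differed in direction. Hk1, the hexokinase of most tissues and the main one in brain, had 178 and 195 CPM, for a log2 value of 0.13 [0.06, 0.20]. Hk2, the hexokinase that is a known HIF target and is abundant in photoreceptors, had 64.6 CPM (1081 reads) and 52.5 CPM (926 reads), with a log2 value of -0.30 [-0.43, -0.17] and the lowest of the 16 enzymes. Neither reached 1.5-fold, but the ratio of Hk2 to Hk1 reads differed by -0.43 [-0.58, -0.28], and the sum of both differed by 0.03 [-0.03, 0.09], or -0.02 with total read scaling. Phosphofructokinase, the committing enzyme, was carried by its muscle form Pfkm at 139 and 146 CPM and its liver form Pfkl at 121 and 126 CPM, both with intervals that included 0. The exons of Pfkm overlap other genes, mainly Gm26513, over 10.7% of their bases. The platelet form Pfkp had 78.6 CPM (1314 reads) and 106 CPM (1863 reads), with a log2 value of 0.42 [0.32, 0.53], the second highest of the 16 enzymes and under the threshold over its whole interval. The ratio of Pfkp to Pfkm reads differed by 0.36 [0.23, 0.49], whereas that of Pfkl to Pfkm differed by -0.01 [-0.13, 0.11]. Pfkp overlaps Pitrm1 on the opposite strand over 5.6% of its exon bases, and Pitrm1 had 114 and 110 CPM.

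Between these steps, Gpi1, which turns glucose phosphate into fructose phosphate, had 120 CPM and 122 CPM, and overlaps Gm26762 on the opposite strand over 11.5% of its exon bases. The aldolase Aldoa, which splits the sugar, had 396 and 435 CPM, and the brain form Aldoc had 5.38 CPM (90 reads) and 4.48 CPM (79 reads), an interval from -0.72 to 0.19. Tpi1, which interconverts the triose phosphates, had 335 and 355 CPM, and Pgam1, the mutase before enolase, had 339 and 362 CPM. These middle enzymes differed little, from -0.24 for Aldoc to 0.14 for Aldoa on the log2 scale. Of the stretches of Pgam1, 36.2% are shared with other genes, and the retrocopy Pgam1-ps2 was listed at 1.02 and 1.13 CPM.

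At the end of the pathway, Pkm had 2066 CPM (34567 reads) and 1810 CPM (31930 reads), with a log2 value of -0.19 [-0.21, -0.17]. All 16 enzymes summed to 5207 and 5263 CPM, a log2 ratio of 0.02 [0.00, 0.03] that turned to -0.03 with total read scaling. The 15 enzymes without Pkm summed to 3141 and 3453 CPM, 0.14 [0.12, 0.15], or 0.09 with total read scaling. Neither sum holds Gapdh (947 and 788 CPM) or Pgk1 (476 and 487 CPM), so each value describes the enzymes summed and not the pathway. Of the 50-base stretches of Pkm, 25.8% are shared with other genes, among them an unnamed gene listed at 99.7 and 93.6 CPM. The exons of Pkm overlap Gm49759 on the same strand over 15.3% of their bases, so its level is uncertain. Ldha, the lactate dehydrogenase subunit that favors making lactate, had 493 and 547 CPM, for a log2 value of 0.15 [0.11, 0.20]. Ldhb, the subunit that favors using lactate, had 44.1 CPM (738 reads) and 37.6 CPM (663 reads), -0.23 [-0.39, -0.08]. The ratio of Ldhb to Ldha reads differed by -0.38 [-0.54, -0.22], and Ldhb went from 15.9% to 12.6% of the lactate dehydrogenase level per kb. Of the stretches of Ldhb, 20.99% are shared with other genes.

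Of the 7 kinases, 1 was called higher (14.3%) and 0 lower, beside 3.91% and 3.07% of all genes. Their median log2 fold change was 0.24. The PFKFB enzymes make and break fructose-2,6-bisphosphate, the strongest activator of phosphofructokinase, and Pfkfb3, a HIF target with high kinase activity, was the called one. It had 71.3 CPM (1192 reads) with the empty vector and 109 CPM (1927 reads) with 3xF-TRPM1, a log2 fold change of 0.61 [0.51, 0.72]. The call was close to the threshold and was lost with total read scaling, where the log2 fold change was 0.57. Pfkfb2, known from heart, had 13.6 and 13.5 CPM, and Pfkfb4 had 9.86 and 10.1 CPM, with intervals from -0.28 to 0.25 and from -0.27 to 0.36. The exons of Pfkfb2 overlap other genes, Gm29427 and Yod1, over 19.5% of their bases, and 17.3% of its 50-base stretches are shared, so its level and its ratio to Pfkfb3 are uncertain. Pfkfb3 was already 70.7% of the PFKFB level per kb in the empty vector library and was 78.6% in the 3xF-TRPM1 library. The ratios of Pfkfb2 and Pfkfb4 to Pfkfb3 reads differed by -0.63 [-0.92, -0.34] and -0.58 [-0.91, -0.24].

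Pyruvate dehydrogenase kinases switch off the entry of pyruvate into mitochondria, and none of the 4 was called. The most abundant, Pdk3, had 65.3 CPM (1092 reads) and 60.4 CPM (1065 reads), with a log2 value of -0.11 [-0.24, 0.01], the lowest of the 7 kinases. The other 3 had higher levels in the 3xF-TRPM1 library. Pdk4, known as a gene of fasting and fatty acid use, had 13.0 CPM (217 reads) and 18.3 CPM (322 reads), with a log2 value of 0.48 [0.24, 0.75]. Pdk1, a classical HIF target, had 19.8 and 24.3 CPM, 0.29 [0.09, 0.51], and Pdk2 had 18.1 and 21.5 CPM, 0.24 [0.03, 0.47]. The ratios to Pdk3 reads differed by 0.61 [0.32, 0.89] for Pdk4, 0.41 [0.17, 0.66] for Pdk1 and 0.36 [0.11, 0.62] for Pdk2. Because Pdk3 was most of the family, the sum over the 4 kinases differed less, from 116 to 124 CPM. Its log2 ratio was 0.10 [0.01, 0.19], or 0.05 with total read scaling.

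Of the 6 oxygen sensing genes, 1 was called higher (16.7%) and 0 lower, beside 3.91% and 3.07% of all genes. Their median log2 fold change was 0.07. The called gene was Epas1, which encodes HIF2A, the alpha subunit known from endothelium and from the control of erythropoietin. It had 57.6 CPM (963 reads) and 111 CPM (1962 reads), with a log2 value of 0.94 [0.84, 1.06]. Hif1a, which encodes the ubiquitous alpha subunit, had 1486 CPM (24866 reads) and 1650 CPM (29114 reads), with a log2 value of 0.15 [0.13, 0.18]. Hif1a was thus among the most abundant mRNAs of both libraries and stayed well above Epas1, by 24.5-fold per kb with the empty vector and 14.1-fold with 3xF-TRPM1. The ratio of Epas1 to Hif1a reads differed by 0.80 [0.68, 0.91]. Hif1a overlaps the antisense gene Gm15283 over 5.6% of its exon bases, listed at 4.72 and 6.01 CPM.

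The genes that mark and remove HIF alpha differed by less. Egln1, the main hydroxylase of HIF1A in normal oxygen, had 71.3 and 76.3 CPM, for a log2 value of 0.10 [-0.02, 0.21]. Egln2 had 45.0 CPM (752 reads) and 39.7 CPM (701 reads), -0.18 [-0.33, -0.03], the lowest of the 6. Egln3, itself a HIF target, had 51.7 and 49.7 CPM, -0.06 [-0.19, 0.08]. Vhl, the substrate receptor of the ubiquitin ligase, had 35.1 and 36.0 CPM, 0.04 [-0.13, 0.20]. The 3 hydroxylases summed to 168 and 166 CPM, a log2 ratio of -0.02 [-0.09, 0.06], and stood at like levels per kb, from 16.1 to 19.8 in the empty vector library.

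**Figure D3:**
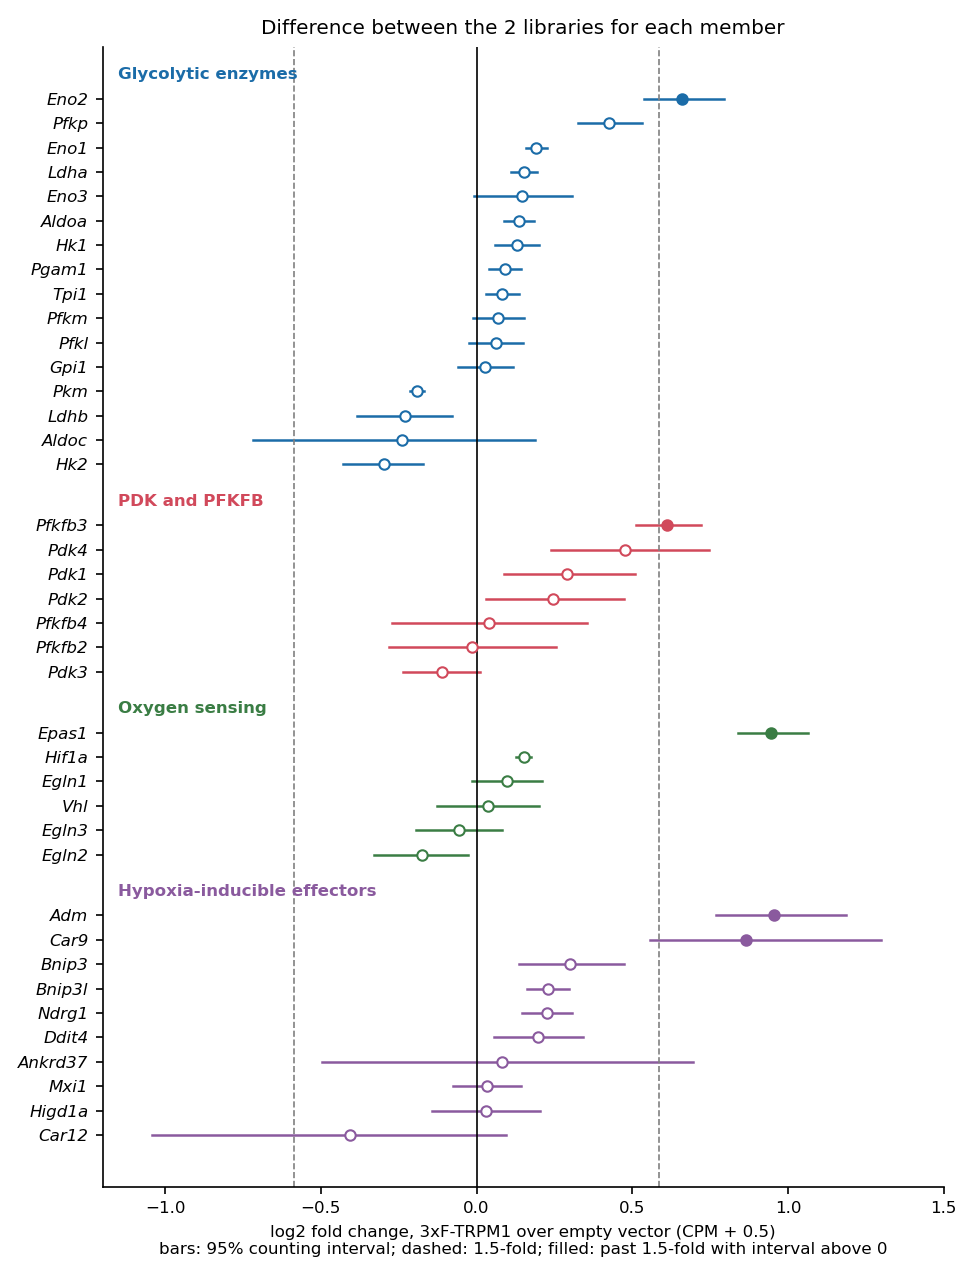
Each row is 1 member, grouped by role, with its log2 fold change of 3xF-TRPM1 over empty vector as a circle and the 95% counting interval as a bar, with dashed lines at 1.5-fold and filled circles for the 5 called genes. Adm (0.96), Epas1 (0.94) and Car9 (0.87) stand furthest to the right, and the widest bars belong to the members with the fewest reads, Car12, Ankrd37 and Aldoc.

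Of the 10 hypoxia-inducible effectors, 2 were called higher and 0 lower, with a median log2 fold change of 0.21. Adm encodes adrenomedullin, a secreted peptide that dilates vessels. It had 16.8 CPM (281 reads) and 33.1 CPM (583 reads), with a log2 value of 0.96 [0.77, 1.19] and the highest of the 39 members. Car9 encodes a carbonic anhydrase at the cell surface that handles acid made by glycolysis, and is among the genes most dependent on HIF1A in tumor cells. It had 5.56 CPM (93 reads) and 10.5 CPM (186 reads), with a log2 value of 0.87 [0.56, 1.30]. Its relative Car12 had 3.77 CPM (63 reads) and 2.72 CPM (48 reads), with a log2 value of -0.41 [-1.04, 0.10], the lowest of the 39 with an interval that includes 0. The ratio of Car12 to Car9 reads differed by -1.39 [-2.08, -0.71]. Both are scarce, so few reads carry this difference.

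The other effectors had smaller differences. Bnip3l, a receptor that marks mitochondria for removal, was the most abundant of the 10 at 195 CPM (3256 reads) and 228 CPM (4025 reads), with a log2 value of 0.23 [0.16, 0.30], and its relative Bnip3 had 30.2 and 37.4 CPM, 0.30 [0.14, 0.47]. The ratio of Bnip3 to Bnip3l reads differed by 0.08 [-0.11, 0.26]. Of their 50-base stretches, 47.2% in Bnip3 and 20.8% in Bnip3l are shared with other genes, so these levels are uncertain. Ndrg1, a stress gene induced by hypoxia and differentiation, had 138 and 161 CPM, 0.23 [0.15, 0.31], and Ddit4, an inhibitor of mTORC1 also known as REDD1, had 43.5 and 49.9 CPM, 0.20 [0.06, 0.34]. Mxi1, an antagonist of Myc, had 80.5 and 82.4 CPM, and the mitochondrial protein gene Higd1a had 31.2 and 31.9 CPM. Ankrd37 had 2.81 CPM (47 reads) and 3.00 CPM (53 reads), with an interval from -0.50 to 0.69 that would hold a difference of 1.5-fold. The exons of Ankrd37, Higd1a and Bnip3 overlap genes on the opposite strand over 26.4%, 22.5% and 22.3% of their bases, and those of Ndrg1 over 8.4%. Of the 50-base stretches of Higd1a, 24.4% are shared with other genes.

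**Figure D4:**
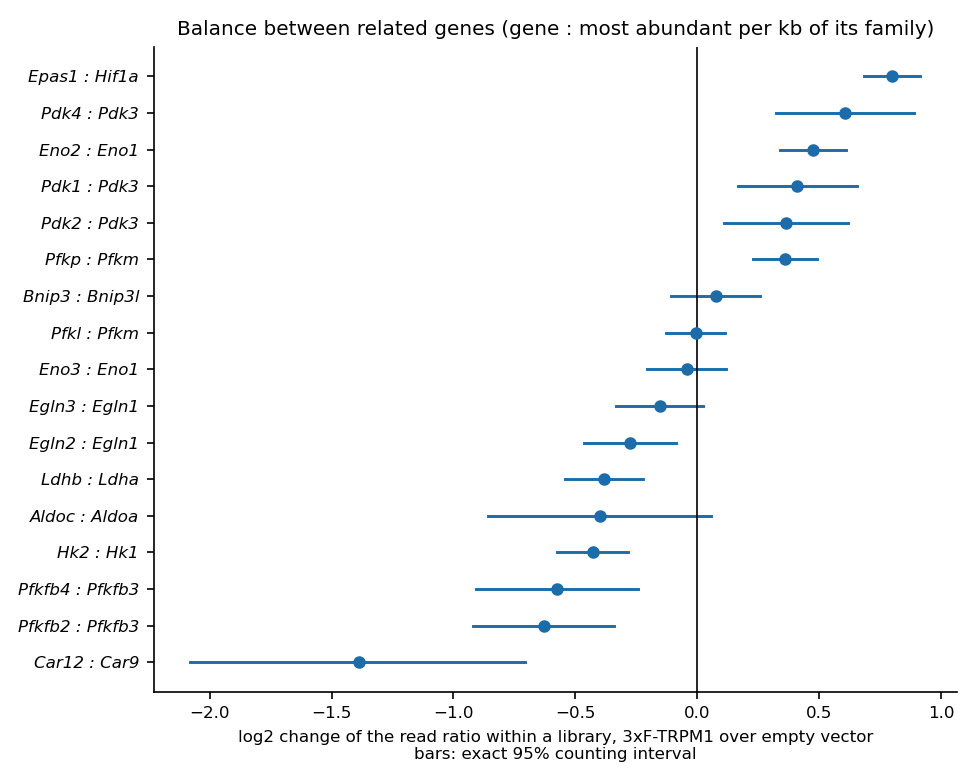
Each row is the ratio of a member's reads to those of the most abundant member of its family per kb in the empty vector library, and the point is the log2 difference of that ratio between the 3xF-TRPM1 and the empty vector library, with the exact 95% counting interval as a bar. Epas1 to Hif1a (0.80) and Pdk4 to Pdk3 (0.61) lie furthest to the right and Car12 to Car9 (-1.39) furthest to the left, while the bars of Bnip3, Pfkl, Eno3, Egln3 and Aldoc include 0.

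Other genes of the same pathways were read from lists of known genes. Of 34 further genes of glycolysis and pyruvate use, 26 were measured, with a median log2 fold change of -0.06. Of these, 0 were called higher and 1 lower (3.85%), beside 3.91% and 3.07% of all genes. The called gene was Slc2a3, a glucose transporter of neurons known as GLUT3, with 4.01 CPM (67 reads) with the empty vector and 1.30 CPM (23 reads) with 3xF-TRPM1, a log2 fold change of -1.32 [-2.37, -0.92]. The main glucose transporter measured, Slc2a1, known as GLUT1, had 227 and 259 CPM, 0.19 [0.13, 0.26]. The highest of the list was Slc16a3, the lactate exporter MCT4, at 14.8 and 22.1 CPM, 0.56 [0.35, 0.81], just under the threshold. Gapdh, which stands between Tpi1 and Pgk1 in the pathway, had 947 and 788 CPM, -0.26 [-0.30, -0.23], and Pgk1 had 476 and 487 CPM.

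All 38 further genes known to be hypoxia-inducible were measured, and 4 were called higher and 3 lower, with a median log2 fold change of 0.11. The 4 were Ak4, a mitochondrial adenylate kinase, at 22.2 and 40.5 CPM (0.85 [0.68, 1.05]), the scarce Ppp1r3c, which targets a phosphatase to glycogen, at 25 and 46 reads (0.64 [0.07, 1.57]), Hmox1, heme oxygenase, at 152 and 233 CPM (0.61 [0.54, 0.69]), and Lox, which cross-links collagen, at 863 and 1301 CPM (0.59 [0.56, 0.62]). With total read scaling Hmox1 and Lox fell under the threshold, at 0.57 and 0.54. The 3 called lower were Slc2a3 again, Stc2, a secreted glycoprotein, at 10.9 and 5.90 CPM (-0.83 [-1.25, -0.53]), and Gbe1, the glycogen branching enzyme, at 26.5 and 16.2 CPM (-0.70 [-0.94, -0.50]). Vegfa, the angiogenic growth factor, had 113 and 129 CPM, 0.19 [0.11, 0.28]. The list thus held calls in both directions, 10.5% higher and 7.89% lower, beside 3.91% and 3.07% of all genes.

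Of 18 further symbols of oxygen sensing, 14 were measured and 0 were called in either direction. The 18 name Elob and Eloc also by their older symbols, Tceb2 and Tceb1, and so hold fewer genes than symbols. By the interval alone 3 lay above 1-fold and 2 below. The median log2 fold change was 0.03, from Ep300, a coactivator of HIF, at 226 and 201 CPM (-0.17 [-0.24, -0.10]) to Arnt, the beta subunit with which HIF alpha pairs, at 162 and 194 CPM (0.27 [0.19, 0.34]). Over the 72 different genes measured in these 3 lists, 4 were called higher and 3 lower, and the median log2 fold change was 0.05. The shares called, 5.56% higher and 4.17% lower, stand beside 3.91% and 3.07% of all genes.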

How the data were processed

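RNA of 661W cells with the empty vector (1 library) and with 3xF-TRPM1 (1 library) was analysed. Per the methods and the submitters' processing notes, the authors made the libraries with the KAPA mRNA HyperPrep kit, used HISAT2 2.1.0 for alignment to GRCm38, featureCounts 2.0.0 for counting per gene and then edgeR 3.28.1 and DESeq 1.40.0. The sources used here give neither the annotation release nor the strand setting, and the table's gene length equalled the summed exon length of GENCODE M21 for 39 of 39 members. The deposited CPM values by the authors cover 13281 genes, all above 1 CPM in both libraries (lowest 1.02 in each, 17 and 18 reads), so genes near 0 in either library were not analysed here. The gene length deposited by the authors served to compare levels between genes.

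All CPM values were whole multiples of the library's smallest step (tolerance 0.01 step), which gave the reads and effective library sizes of 16728172 and 17639743 reads. Raw counts were expected when the tests were planned, and no count model was run on the CPM values. Fold changes used a pseudocount of 0.5 CPM, and a minimum of 1 CPM on the mean removed 0 genes. Calls were made over all genes at 1.5-fold with a 95% exact interval. The procedure was tested on simulated reads with counting error only and changes of 2-fold or more in either direction. That test held no variation between cultures and no change near 1.5-fold, so it does not bear on either. Intervals use no pseudocount and are not centred on the fold change of low genes. Ratios within a family used the exact conditional interval of the 4 read numbers. Every member was named, with reads for called genes and for the highest, lowest and most abundant of each role group, and, of the other lists, called genes and the highest and lowest, and Slc2a1, Gapdh, Pgk1 and Vegfa were added after their values were seen. Members, lists and families were chosen with earlier results of these data known. Shared stretches are 50-base runs of exon sequence found in another gene's transcripts on either strand. They therefore include genes that overlap at the same place as well as copies elsewhere. The deposited fold changes, p-values and the table of Gene Ontology enrichment scores hold the authors' own comparison and were not used. The labels are not checked by the values, since mouse Trpm1 was not analysed here and the human cassette is no part of the mouse genome. Promoters are RefSeq entries on GRCm38.p6. Python 3.11.15, numpy 2.4.6, pandas 2.3.3, scipy 1.17.1 and matplotlib 3.10.9 were used.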

Additional observations from a re-analysis of the deposited data

How the results depend on the processing

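The number of members called higher was 5 with median-of-ratios size factors, pseudocounts of 0.1 and 1 CPM, a mean of at least 5 CPM, no filter or a 99% interval. It was 4 with total read scaling, which left out Pfkfb3 (log2 fold change 0.57), 0 at a 2-fold threshold and 20 with the counting interval alone. The number called lower was 0 under each of these settings except the counting interval alone, which gave 4 (Hk2, Ldhb, Pkm and Egln2). The members' median log2 fold change ranged from 0.05 with total read scaling to 0.13 with a mean of at least 5 CPM, where 36 members were tested. Total read scaling lowered every log2 value by about 0.05, took the median of all genes from 0.0093 to -0.04, and turned the sign of the members Gpi1, Higd1a, Mxi1, Pfkfb4 and Vhl, of the sums of the hexokinases and of all 16 glycolytic enzymes, and, in the other lists, of Pgk1, Pgm1, Insig2, Eloc, Crebbp, Pdgfrb and Vim. In those lists Hmox1, Lox and Slc1a2 lost their calls under it. Among all genes it called 442 higher and 480 lower, and a 2-fold threshold called 115 and 117. A mean of at least 5 CPM called 351 higher and 217 lower of 10857 genes. With the length of the principal transcript, an alternative added after the data were seen, the level of Pkm in the empty vector library was 850 CPM per kb in place of 413. No paired analysis was possible because each condition holds only replicate 1. Members with under 100 reads in a library (Aldoc, Car9, Car12 and Ankrd37) have the widest intervals, and no setting stands in for a second culture.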
